A study of Homo sapiens with 4 samples.

Results

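miR-7 was followed through a pull-down of the circular RNA circHIPK3 as the 3 mature miRNAs that the deposited count table lists for it, hsa-miR-7-5p, hsa-miR-7-1-3p and hsa-miR-7-2-3p. They were chosen by name, and all 3 are among the 2656 mature miRNAs of the table. The cells were RD, a human cell line from an embryonal rhabdomyosarcoma, which is a skeletal-muscle-like tumour. They had no treatment before lysis. RNA was captured from native lysate with biotinylated antisense probes and streptavidin beads, and small RNAs were sequenced. The EVEN library came from the EVEN probes and the ODD library from the ODD probes, which are separate probe sets against exon 2 of HIPK3. The LacZ library came from control probes against a bacterial mRNA, and the input library from RD lysate RNA. Each of the 4 groups is 1 library from 1 biological replicate, so no difference here has a replicate check, and every interval covers counting error only. Exon 2 is also part of linear HIPK3 mRNA, and how much circHIPK3 the probes recovered was not analysed here.

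miR-7 is a deeply conserved miRNA known from neurons and endocrine cells, where it holds down growth factor signalling. Its guide strand, miR-7-5p, is loaded into Argonaute and pairs with targets mainly through its seed, bases 2 to 8, while the 3p strands are usually degraded as passengers. The circular RNA CDR1as, transcribed opposite the gene CDR1, is known for binding miR-7 at many seed sites in brain, and miR-671-5p is known for guiding its cleavage. miR-7 has also been reported elsewhere as a partner of circHIPK3 in tumour cells.

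The mature strands are shown first because the guide and the passenger miR-7-1-3p behave differently below. Each is printed 5′ to 3′ from the RefSeq-based table for GRCh38.p14, with the seed in capitals.
hsa-miR-7-5p: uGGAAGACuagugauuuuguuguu
hsa-miR-7-1-3p: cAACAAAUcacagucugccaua
hsa-miR-7-2-3p: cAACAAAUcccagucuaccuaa
The 3p strands share their seed and are identical at 18 of 22 positions. They differ by A10C, G17A, A20U and U21A, counted from the 5′ end with the miR-7-1-3p base first. Among 2370 human mature sequences in that table, no other miRNA had the seed of miR-7-5p. miR-6077 shared bases 2 to 7 and had 0 reads in all 4 libraries.

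The guide is encoded in 3 hairpins of 110 nt in GRCh38 (GENCODE release 29). MIR7-1 lies on chromosome 9 at 83969748 to 83969857, minus strand, inside HNRNPK, where it overlaps an exon of at least 1 transcript model. The type of that model was not recorded. MIR7-2 lies on chromosome 15 at 88611825 to 88611934, plus strand, with no host gene on its strand. MIR7-3 lies on chromosome 19 at 4770670 to 4770779, plus strand, in an intron of MIR7-3HG. Reads of miR-7-5p therefore cannot be assigned to a hairpin, whereas the 3p names belong to MIR7-1 and MIR7-2. The MIR7-2 hairpin is printed because a second miRNA lies opposite it, with the miR-7-5p stretch, bases 32 to 55, in capitals.
MIR7-2: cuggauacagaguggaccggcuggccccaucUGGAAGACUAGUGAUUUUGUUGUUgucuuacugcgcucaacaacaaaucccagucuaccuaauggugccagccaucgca
hsa-miR-3529-3p: aACAACAAaaucacuagucuucca
miR-3529-3p is encoded on the minus strand of chromosome 15 at 88611856 to 88611879 and is complementary to miR-7-5p over all 24 bases. It was added here for this position, after its values were seen.

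The libraries held 98950 miRNA reads for EVEN, 426450 for ODD, 425395 for LacZ and 2987858 for input. Where a library lists 0 reads, the level can still reach 30.3 CPM (read counts scaled to the same total in every library) in EVEN, 7.04 in ODD, 7.05 in LacZ and 1.00 in input, taking 3 reads as the limit. The muscle identity of the line was visible in the input, where miR-206 ranked 4 with 42097 CPM, beside miR-1-3p with 13995, miR-133a-3p with 5012 and miR-133b with 1021 CPM. Of the contrast markers there, miR-124-3p had 1 read, miR-122-5p 11 reads and miR-200c-3p 90 reads, but the neural miR-9-5p ranked 26 with 10059 CPM.

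miR-7-5p was an abundant miRNA of the lysate and of the control pull-down, and it took a smaller share of reads in both circHIPK3 pull-downs. It had 295 reads in EVEN, or 2981 CPM, with a 95% exact Clopper-Pearson interval from 2651 to 3341. ODD held 681 reads, or 1597 CPM (1479 to 1721). LacZ held 9503 reads, or 22339 CPM (21897 to 22788), and the input held 33324 reads, or 11153 CPM (11034 to 11273). LacZ was the highest library and ODD the lowest, and none of these 4 counting intervals overlapped. The input level is an average over the lysed cells, so the number of cells holding miR-7-5p and its amount per cell cannot be told apart.

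By rank of reads, miR-7-5p stood at 39 of 439 detected miRNAs in EVEN, 45 of 592 in ODD, 11 of 745 in LacZ and 24 of 1146 in input. Ranks compare reads and not molecules. In EVEN it stood between miR-224-5p with 331 reads and miR-486-3p with 291, and in ODD between miR-510-5p with 682 and miR-183-5p with 664. Its neighbours in LacZ were miR-92a-3p with 10393 reads and miR-20a-5p with 8422, both of the miR-17-92 cluster. In the input they were miR-199a-5p with 38657 and miR-24-3p with 32884. The counting intervals of miR-7-5p and both neighbours overlapped in EVEN and in ODD, as did those of miR-7-5p and miR-24-3p in input. In LacZ neither neighbour overlapped it.

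**Figure D1:**
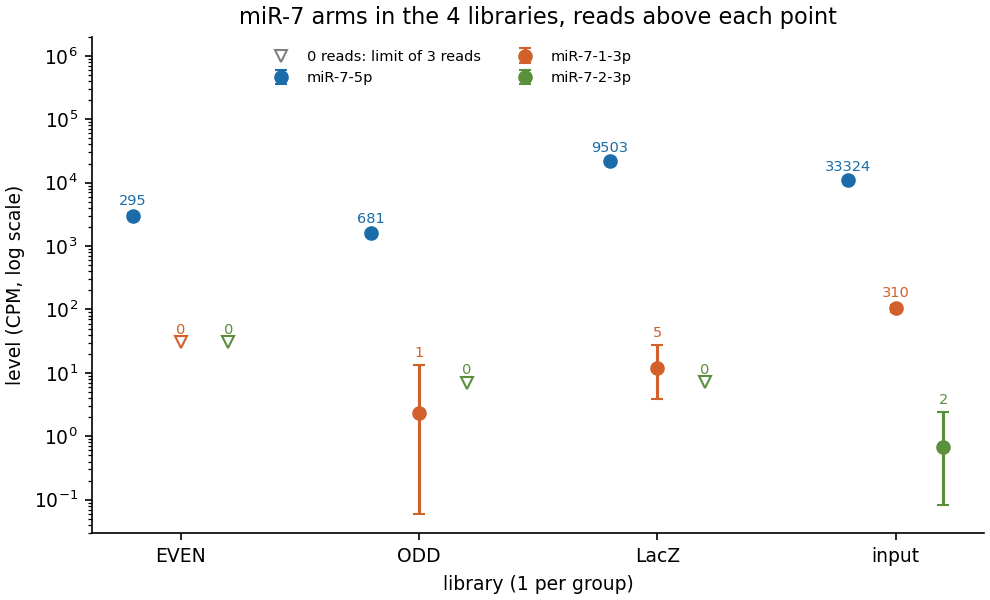
Level of each miR-7 strand (CPM, log scale) in the EVEN, ODD, LacZ and input libraries, with its reads printed above, bars for the 95% exact counting interval, and open triangles at the limit of 3 reads where a library had 0. miR-7-5p lies at 2981, 1597, 22339 and 11153 CPM in EVEN, ODD, LacZ and input, and the 3p strands lie far below it in every library.

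Against the control probes, miR-7-5p made up a smaller share of the reads with the probes to circHIPK3, not a larger one. With EVEN probes its share of reads was 7.49-fold lower than with LacZ probes (95% exact conditional interval 6.67 to 8.44), a log2 ratio of -2.90 after adding 0.5 to each count. With ODD probes it was 14.0-fold lower than with LacZ probes (12.9 to 15.1), a log2 ratio of -3.81. Both ratios share the LacZ library, the one in which miR-7-5p was highest.

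These values need the background of all miRNAs, because many others were also lower than in LacZ. A miRNA counted as tested where either library of the pair held 20 or more of its reads, and as called at 2-fold. Of 289 tested with EVEN over LacZ, 51.2% were called lower and 9.69% higher, and the median log2 ratio was -1.06. Of 300 tested with ODD over LacZ, 70.3% were called lower and 13.0% higher, with a median of -1.79. The share of higher ones among all called depended on the scaling. It was 15.9% by library totals and 28.7% by median-of-ratios size factors for EVEN, and 15.6% and 41.5% for ODD.

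How common a lower call was also depended on the scaling. With TMM factors 40.8% of tested miRNAs were called lower for EVEN and 34.3% for ODD, and with median-of-ratios factors 37.0% and 32.0%, while miR-7-5p was called lower under both. Relative to the median, it lay 1.84 log2 units below the median with EVEN and 2.01 below it with ODD probes, distances that no scaling of the libraries changes. Of the tested miRNAs, 13.8% were lower than miR-7-5p with EVEN and 10.7% with ODD probes. With 5 added to each count these shares were 2.42% and 3.00%, and with a minimum of 1 read 5.70% and 6.52%. Of the 10 miRNAs with more LacZ reads than miR-7-5p, 0 were as far down in either pull-down. Their log2 ratios ran from -1.54 to 1.27 with EVEN and from -2.53 to 2.46 with ODD probes.

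Between the probe sets, miR-7-5p was 1.87-fold higher with EVEN than with ODD (1.62 to 2.14), a log2 ratio of 0.90 that is under the 2-fold threshold. TMM factors turned this to -0.12 and median-of-ratios size factors to -0.14, so the data give no stable order of EVEN and ODD for miR-7-5p. Of 203 miRNAs tested there, 37.9% were called higher and 18.2% lower with EVEN probes. Called miRNAs were 67.5% higher by library totals but 23.8% higher with TMM factors.

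Relative to the input, miR-7-5p went opposite ways in the circHIPK3 and the control pull-downs. It was 3.74-fold lower in EVEN than in input (3.34 to 4.21) and 6.98-fold lower in ODD than in input (6.47 to 7.55). In LacZ it was 2.00-fold higher than in input (1.96 to 2.05), so the interval reaches below the 2-fold threshold. TMM and median-of-ratios size factors brought this log2 ratio of 1.00 to 0.40 and 0.72, still above 0 but no longer called. All 23 miRNAs with more input reads than miR-7-5p had a lower LacZ-over-input ratio than it, from -3.05 to 0.98 on the log2 scale.

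Among all tested miRNAs, the place of miR-7-5p over input depended on the setting for EVEN and ODD. In EVEN over input, 52.2% of 464 tested miRNAs were called lower and 34.7% were lower than miR-7-5p. In ODD over input, 68.6% of 468 were called lower and 40.2% were lower than miR-7-5p. With 5 added to each count, 13.6% were lower than miR-7-5p for EVEN and 17.7% for ODD, and with a minimum of 1 read 13.8% and 15.7%. With the deposited CPM and 1 added, 50.2% were lower for EVEN. In LacZ over input, 18.1% of 475 were called higher, 34.3% lower, and 82.1% lay below miR-7-5p, which stood 1.44 log2 units above the median. With a minimum of 1 read it stood 0.51 above the median and 60.5% lay below it. Higher ones made up 26.0% of the called miRNAs for EVEN, 16.0% for ODD and 34.5% for LacZ over input. With library totals that omit the 10 most abundant miRNAs these shares were 41.1%, 29.6% and 46.0%. With TMM factors the LacZ share was 20.4%, and with median-of-ratios factors the ODD share was 31.3%.

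**Figure D2:**
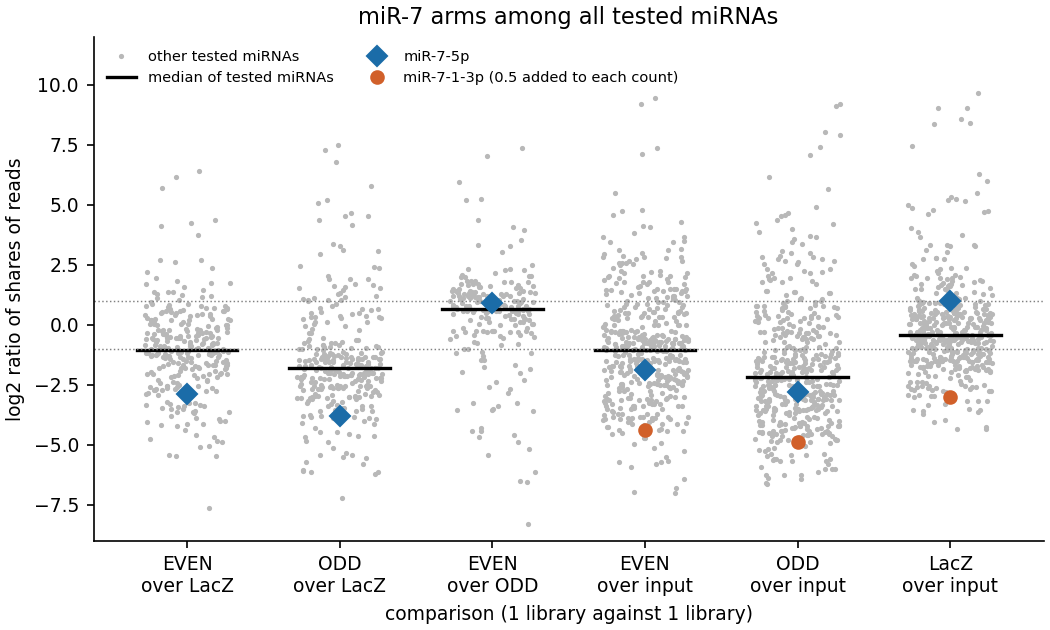
Log2 ratio of the share of reads for every tested miRNA (grey points) in the 6 comparisons of 1 library with another, with black lines at the medians and dotted lines at 2-fold. miR-7-5p (blue) lies 1.84 and 2.01 below the medians of EVEN and ODD over LacZ and 1.44 above that of LacZ over input, while miR-7-1-3p (orange, where tested) is low in all 3 pull-downs over input.

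The passenger strands were rare, and miR-7-1-3p did not follow the guide into the control pull-down. miR-7-1-3p had 0 reads in EVEN, 1 in ODD, 5 in LacZ and 310 in input. Its input level was 104 CPM (92.5 to 116), and in LacZ it was 11.8 CPM (3.82 to 27.4). It was therefore 8.83-fold lower in LacZ than in input (3.74 to 27.4), where the guide was higher.

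In EVEN, miR-7-1-3p was at least 3.42-fold lower than in input, taking a floor of 3 reads in the EVEN library. In ODD it was 44.2-fold lower than in input, from 1 read, with an interval from 7.88 to 1753. Against LacZ it had too few reads to be tested in either circHIPK3 pull-down. miR-7-2-3p had 2 reads in input and 0 in each pull-down, and these depths could not show a change in it.

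The balance of guide to passenger within a library needs no scaling between libraries. miR-7-1-3p made up 0 of 295 guide and passenger reads in EVEN, with an exact upper limit of 1.24%. It made up 0.147% of them in ODD (0.00371 to 0.814). The share was 0.0526% in LacZ (0.0171 to 0.123) and 0.922% in input (0.822 to 1.03). At the input's balance, 2.74 reads of it would stand beside the guide in EVEN, 6.34 in ODD and 88.4 in LacZ. The intervals of LacZ and input do not overlap. Those of ODD and input also do not, though narrowly and with 1 passenger read in ODD. EVEN had too few reads to show a difference from input.

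There were 1901 guide reads per miR-7-1-3p read in LacZ and 107 in the input. The LacZ balance was 17.7-fold further towards the guide (7.49 to 54.9, conditional exact interval). For ODD the same change was 6.33-fold (1.13 to 251) and rests on 1 read. As background, the same change was computed for 72 other hairpins whose 5p and 3p strands each had at least 100 input reads. Only strands with the same name before 5p and 3p were paired. Hairpins whose passenger name carries a locus number, as miR-7-1-3p does, were therefore left out, and miR-7 was not ranked among them. Their median log2 change was 0.14 in LacZ, with 40 of 72 above 0, so a shift towards the major strand was not general. The miR-7 value of 4.01 exceeded all 72, the next being miR-362 at 3.56, a fold that lies inside the miR-7 counting interval. In EVEN and ODD, 11 of the 72 hairpins were at or above miR-7.

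**Figure D3:**
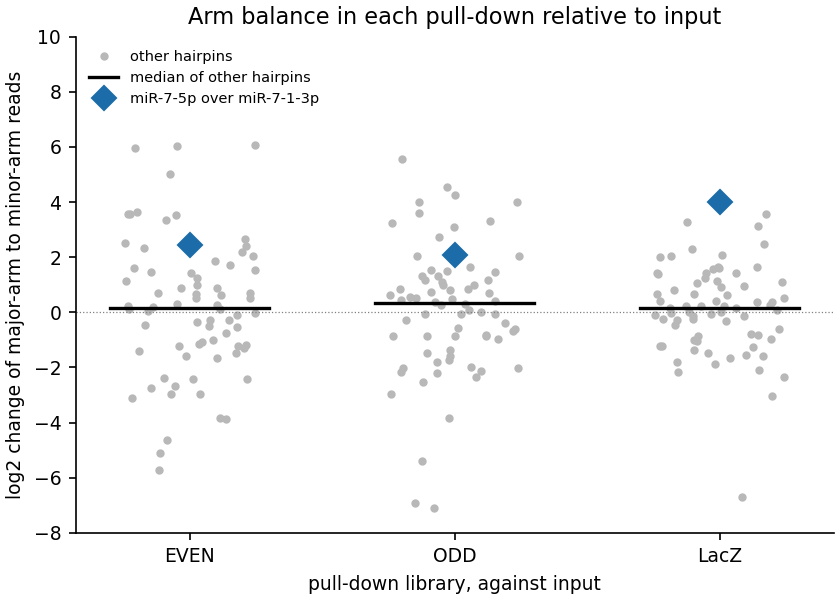
Log2 change in the ratio of major-strand to minor-strand reads in each pull-down library over input, for 72 hairpins (grey), their median (black line) and miR-7-5p over miR-7-1-3p (blue, 0.5 added to each count). In LacZ the miR-7 point at 4.01 is above all 72 of these hairpins, and in EVEN and ODD it lies within their spread.

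Reads listed for the strand opposite the guide followed the guide's order in part. miR-3529-3p had 1 read in EVEN, 7 in ODD, 62 in LacZ and 153 in input. It was 2.85-fold higher in LacZ than in input (2.08 to 3.85), and 8.88-fold lower in ODD than in LacZ (4.06 to 23.0). Per miR-3529-3p read there were 97.3 miR-7-5p reads in ODD, 153 in LacZ and 218 in input, with 295 to 1 in EVEN. Its share of the reads of both was 0.338% in EVEN (0.00855 to 1.87), 1.02% in ODD (0.410 to 2.09), 0.648% in LacZ (0.497 to 0.830) and 0.457% in input (0.388 to 0.535). The intervals of all 4 libraries overlap one another, which does not show that the shares are equal. In LacZ over input, the interval of miR-3529-3p (2.08 to 3.85) lies just above that of miR-7-5p (1.96 to 2.05). A difference in this balance was not tested. Whether the counting used strand is not stated in the labels, so reads of these complementary miRNAs cannot be told apart with certainty.

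The 5 miRNAs most like miR-7-5p across the pull-downs were mostly of low abundance. Likeness was the distance between the log2 ratios over input in the 3 pull-downs, among 269 other miRNAs with at least 20 reads in LacZ and in input. Closest was miR-887-3p at a distance of 0.748, with log2 ratios over input of -1.55 in EVEN, -2.17 in ODD and 0.82 in LacZ. miR-181a-5p followed at 0.916, with -1.70, -2.26 and 0.30 in the same libraries. miR-126-3p, best known from endothelium, lay at 1.19, miR-339-3p at 1.20 and miR-3065-5p at 1.22. miR-126-3p had 365 reads in EVEN, 603 in ODD and 3920 in LacZ, the others at most 46 in EVEN and ODD.

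Other miRNAs reported as circHIPK3 partners give a second background. Of 15 listed besides miR-7-5p, 9 were tested, with 7 called lower and 1 higher in EVEN over LacZ, and 8 lower and 1 higher in ODD over LacZ. These counts stand beside the 51.2% and 70.3% of all tested miRNAs that were lower, and the 9.69% and 13.0% that were higher. Its 9 tested members had a median log2 ratio of -1.68 (EVEN) and -1.89 (ODD), beside -1.06 and -1.79 for all tested miRNAs. With TMM factors 5 were called lower with EVEN and 3 with ODD probes. With median-of-ratios factors the counts were also 5 and 3, and 6 rather than 8 lay below 0 with ODD probes. The 5 of 9 with EVEN probes stand beside 40.8% of all tested miRNAs with TMM and 37.0% with median-of-ratios factors. The 3 of 9 with ODD probes stand beside 34.3% of all tested miRNAs with TMM and 32.0% with median-of-ratios factors, a share near the background.

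miR-7-5p was near the bottom of that list. With EVEN probes only miR-29b-3p, a miRNA known for repressing collagen genes, had a lower ratio over LacZ, at -3.49 from 2 reads against 120. With ODD probes 0 of the 9 were lower than miR-7-5p, the nearest being miR-29b-3p at -3.39 and miR-326 at -3.19. Their counting intervals, -4.49 to -2.56 and -4.44 to -2.27, include the -3.81 of miR-7-5p, so this order is not resolved. With EVEN probes the intervals of miR-29b-3p, miR-29a-3p, miR-326, miR-338-3p, miR-379-5p and miR-654-3p include the -2.90 of miR-7-5p. miR-29a-3p had 8 reads in EVEN and 30 in ODD, against 242 in LacZ, and log2 ratios of -2.73 and -2.99 over LacZ. miR-326 had 3 reads in EVEN and 9 in ODD, against 86 in LacZ.

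The remaining tested partners were closer to LacZ. The log2 ratios over LacZ were -2.42 in EVEN and -1.89 in ODD for miR-338-3p, -1.68 and -1.36 for miR-379-5p, -1.17 and -1.63 for miR-584-5p, and -1.07 and -1.41 for miR-654-3p. miR-379-5p, miR-338-3p and miR-654-3p had 2 reads each in EVEN, and the interval of miR-654-3p there includes no difference from LacZ. miR-421 was 3.22-fold higher in EVEN than in LacZ (2.67 to 3.89) but lower in ODD, and miR-107, of the miR-103/107 family, was 2.94-fold higher in ODD (2.17 to 4.04). miR-152-3p, miR-124-3p, miR-193a-3p, miR-558, miR-30a-3p and miR-637 had too few reads to be tested, at most 3 in EVEN and ODD and 19 in LacZ.

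**Figure D4:**
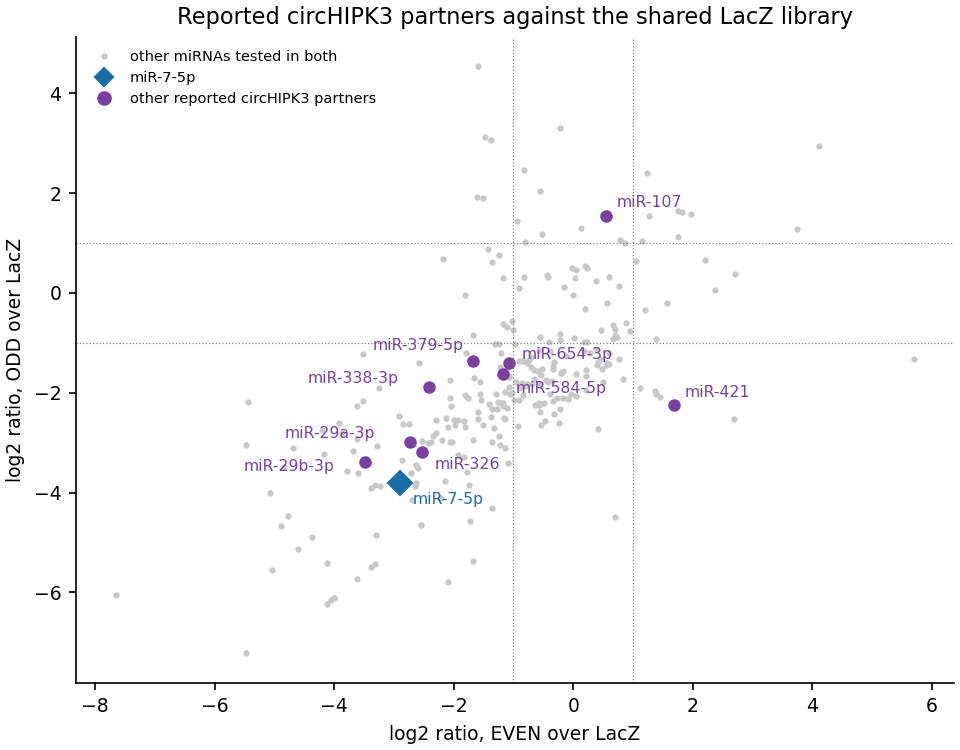
Log2 ratio over LacZ with EVEN probes (x axis) and ODD probes (y axis) for miRNAs tested in both, with miR-7-5p in blue, the other tested circHIPK3 partners in purple and dotted lines at 2-fold. Both axes share the LacZ library, and miR-7-5p sits at -2.90 and -3.81, below all 9 other partners on the ODD axis. The counting intervals of miR-29b-3p and miR-326 on that axis include its value.

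The CDR1as partner miR-671-5p did not share the low values of miR-7-5p. It had 29 reads in EVEN, 174 in ODD, 257 in LacZ and 1062 in input. It was 2.06-fold lower in EVEN than in LacZ (1.40 to 3.14), at the median of all tested miRNAs, and 1.48-fold lower in ODD than in LacZ (1.22 to 1.80). Its passenger miR-671-3p had 12, 34, 31 and 54 reads in EVEN, ODD, LacZ and input. It was 1.66-fold higher in EVEN (0.778 to 3.33) and 1.09-fold higher in ODD (0.652 to 1.84) than in LacZ, with intervals that include no difference.

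The sequence of the bait was then searched for sites that the guide could pair with. HIPK3 exon 2, on chromosome 11 at 33286413 to 33287511 of GRCh38, plus strand, is 1099 nt long and coding from its base 3 on. The complement of the miR-7-5p seed, GTCTTCC, occurred 0 times on the sense strand, 0 times on the opposite strand and 0 times across the joined ends of the circle. The shorter TCTTCC, which lies within it and pairs with bases 2 to 7, also occurred 0 times on both strands. Of 21650 exons of protein-coding transcripts of at least this length, read over their first 1099 bases, 8.63% held GTCTTCC and 41.2% held TCTTCC on the sense strand. Untranslated exons were included, unlike this nearly all-coding exon, and exons that begin at the same base but end elsewhere were counted separately. No match says only that these letters are not in this exon.

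A transcript from the CDR1as strand shows what a dense set of such sites looks like. It stands in for circular CDR1as, whose own sequence was not used here, and an intron is removed from it, so its counts need not be those of the circle. This spliced LINC00632 transcript of 1184 nt in 2 exons, on chromosome X between 140783292 and 140784659, plus strand, runs opposite CDR1. It held GTCTTCC 53 times and TCTTCC 60 times on its sense strand and 0 times on the opposite strand. In 46 of the 53 the base after it was an A, which lies opposite base 1 of the miRNA. Starts of the 53 matches were 18 nt apart at the median, from 14 to 55. Neighbouring sites are printed from the 5′ side, with the bases that match the seed in capitals.
chrX:140783311-140783334: cttccggacaatccatGTCTTCCa
chrX:140783330-140783353: ttccaagaagctccaaGTCTTCCa
chrX:140783347-140783370: tcttccagtaaatcaaGTCTTCCa
Each repeat carries the same 7 letters, and the bases before them vary. miR-671-5p had 1 seed match in this transcript and 0 in HIPK3 exon 2.

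Predicted pairing over the whole strand gave the same order. With RNAduplex, miR-7-5p had a lowest duplex energy of -14.5 kcal/mol on HIPK3 exon 2, where 366 of 441 miRNAs with at least 20 reads in a library had a more stable one. On the LINC00632 transcript it was -26.6 kcal/mol, and 2 of the 441 were more stable. Of 14 partners searched, all but miR-124-3p, 8 had at least 1 seed match in exon 2, with 2 matches each for miR-338-3p and miR-30a-3p. Of all 2367 listed miRNAs with a mature sequence, 7.39% had a match, and reported partners are often proposed from predicted sites, so the list is not independent of this count. miR-421 and miR-107, the partners called higher with 1 probe set, had 0. Matches and energies describe sequence and were not tested as a cause of the read counts.

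**Figure D5:**
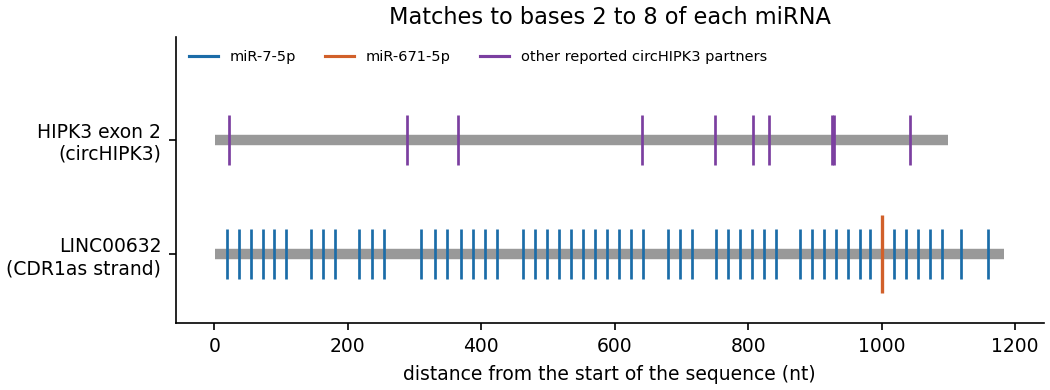
Positions, in nt from the start of each sequence, of matches to bases 2 to 8 of miR-7-5p (blue), miR-671-5p (orange) and the other reported circHIPK3 partners (purple) on HIPK3 exon 2 (1099 nt) and the LINC00632 transcript opposite CDR1 (1184 nt). The 53 miR-7-5p matches are all on the LINC00632 transcript, and the exon carries matches of 8 other partners.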

How the data were processed

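Per the labels' protocols, pull-down RNA was extracted with phenol and chloroform, and the QIAseq miRNA kit gave libraries that a NovaSeq read from a single end. The deposited values are whole read counts for each mature miRNA and CPM, which equal each count over its library total to within 1.46e-11 CPM. The submitters' processing notes name GRCh38. The aligner, any use of strand and whether molecular identifiers were collapsed are not stated there. Uncollapsed identifiers would make intervals too narrow. Titles set the 4 groups, 1 library in each. Ratios used (count + 0.5) per library total, and folds are ratios of shares of reads with exact conditional intervals (95%). Where a library had 0 reads, a floor of 3 reads in that library gave a bound. Shares carry no absolute amounts. Steps were tested on simulated data.

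The members, lists and comparisons were chosen with earlier results of these data known, and partner names come from general knowledge. The text names the members, the listed partners and CDR1as miRNAs, the 5 nearest patterns, rank neighbours and same-seed miRNAs. The hairpin background and miR-3529-3p were added after seeing values. Of the listed miRNAs, 2367 matched a mature sequence. Alternatives were TMM (edgeR 4.0.16), median-of-ratios factors (DESeq2 1.42.0), totals that omit the 10 most abundant miRNAs, 5 added to each count, deposited CPM with 1 added, minimums of 1 and 100 reads, and a 4-fold threshold. Duplexes used ViennaRNA 2.7.2; other steps used Python 3.11.15, pandas 2.3.3, scipy 1.17.1, matplotlib 3.10.9 and R 4.3.3.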

Additional observations from a re-analysis of the deposited data

Results flagged for a closer look

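miR-7-5p was picked out because its log2 ratio over input reached 2-fold in opposite directions. It was -1.90 in EVEN and -2.80 in ODD, against 1.00 in LacZ. The LacZ value only touched that threshold (interval 0.97 to 1.04) and was not called with TMM (0.40) or median-of-ratios factors (0.72). The complementary miR-3529-3p had the same signs over input, at -1.76 in EVEN, -1.55 in ODD and 1.52 in LacZ, with 1 read in EVEN. miR-326 was at -1.56 in ODD and 1.63 in LacZ over input. miR-421 differed between the probe sets, at 1.69 in EVEN and -2.25 in ODD over LacZ. Over input it was -2.92 in ODD and 1.02 in EVEN, where its interval of 0.80 to 1.22 reaches below 2-fold. With 1 library per group none of these differences was tested.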

How the results depend on the processing

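The log2 ratios of miR-7-5p kept their sign under all 5 alternatives in 5 of the 6 comparisons. Its position among the tested miRNAs cannot change under the 3 scalings, which shift all miRNAs of a comparison alike, so it is no check. Adding 5 to each count or using the deposited CPM moved no miR-7-5p value beyond its counting interval, but its position among tested miRNAs moved, as given above. With TMM factors the log2 ratios were -2.64 for EVEN and -2.52 for ODD over LacZ, -0.12 for EVEN over ODD, and -2.24, -2.12 and 0.40 for EVEN, ODD and LacZ over input. With median-of-ratios factors they were -2.50, -2.36 and -0.14, and -1.64 and 0.72 for ODD and LacZ over input. Without the 10 most abundant miRNAs in the totals they were -2.48, -3.11 and 0.62, and -1.16, -1.78 and 1.33 over input. TMM moved the median of all tested miRNAs by 0.26 for EVEN and 1.29 for ODD over LacZ, and by -1.02 for EVEN over ODD. The cause was not tested. miR-7-1-3p over input moved to -1.06 in EVEN and -2.91 in ODD when 5 was added to each count.

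Over the 8 alternatives, called miRNAs ranged from 12 to 149 higher and 76 to 248 lower for EVEN over LacZ (28 and 148 by the settings used). For ODD over LacZ they ranged from 20 to 155 and 96 to 517 (39 and 211), and for EVEN over ODD from 19 to 260 and 25 to 83 (77 and 37). Over input they ranged from 43 to 677 and 99 to 282 for EVEN (85 and 242), 41 to 412 and 218 to 428 for ODD (61 and 321), and 45 to 478 and 55 to 246 for LacZ (86 and 163). EVEN, with 98950 reads, limits what can be said of the passenger strands. No paired analysis was possible because each group has 1 library.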

Other observations

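Seed matches in HIPK3 exon 2 were also set beside the pull-down values of all miRNAs with a mature sequence in the reference. With EVEN over LacZ, the 21 tested miRNAs with at least 1 match had a median log2 ratio of -1.68, with 0 called higher and 14 lower. The 246 without a match had a median of -0.93, with 27 higher and 120 lower. With ODD over LacZ, 23 miRNAs with a match had a median of -1.89, with 3 higher and 20 lower, and 254 without had -1.76, with 35 higher and 173 lower. Lower calls made up 66.7% with and 48.8% without a match for EVEN, and 87% and 68.1% for ODD. Of all tested miRNAs, 51.2% were called lower and 9.69% higher for EVEN, and 70.3% and 13.0% for ODD. These shares are by library totals only, and a link between matches and recovery was not tested. miR-7-5p belongs to the miRNAs without a match, of which 35 with EVEN and 28 with ODD probes had a lower ratio than it.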
